A study of Mus musculus with 6 samples.

Results

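The genes described here are 10 Eph receptors and ephrins of the mouse intestinal crypt. They were chosen by name from a table of 24736 gene symbols and comprise the receptors Ephb2, Ephb3, Ephb4, Ephb6, Epha1 and Epha2 and the ligands Efnb1, Efnb2, Efna1 and Efna4. RNA was sequenced from intestinal epithelial crypts of 3 WT mice and 3 Mtg16-/- mice, with 1 library per mouse, all of them males of 12 weeks. The crypts came from the whole length of the gut after 30 min in cold EDTA at 2 mM, and the total RNA was depleted of ribosomal RNA. MTG16, encoded by Cbfa2t3, is a transcriptional co-repressor. The labels describe the knockout as CRISPR-induced, whereas the study's methods describe Mtg16-/- mice received as a gift, and neither names a strain, a promoter or littermate controls. Levels are TPM, an abundance scaled for gene length and to the same total in every library, so levels of different genes can be compared, while the read depth behind them is unknown. A crypt library is a mixture of cells, so fewer cells of a type and less RNA per cell cannot be told apart, and the position of a cell along the crypt was not measured.

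Eph receptors are tyrosine kinases that bind ephrins on the surface of neighboring cells, and both partners signal into their own cell. EphA receptors mostly bind the lipid-anchored A ephrins, and EphB receptors the transmembrane B ephrins. In the crypt, Ephb2 and Ephb3 are known Wnt targets with high levels at the base, while B ephrins increase toward the villus, and the repulsion between the cells that carry them keeps Paneth cells at the base and sorts cells along the axis.

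No member was called between the genotypes. Of the 10 genes, 9 reached a TPM of 1 or more on average and were tested by limma's moderated test on log2(TPM + 1), among 12268 genes that did so. At a Benjamini-Hochberg adjusted p under 0.1, 0 of these 9 members were called, where the background over all 12268 tested genes was 0.0326% (4 genes, with 0.0163% higher and 0.0163% lower). At an unadjusted p under 0.05 from the same test, 1 of the 9 passed (Epha1, lower), where the background was 14.6%. The WT and Mtg16-/- values overlapped in all 9 tested members, and in Ephb6, while the groups did not overlap in 21% of all tested genes, 9.94% higher and 11.1% lower. Ephb3, Ephb4, Efna4 and Ephb2 had a positive log2 fold change (Mtg16-/- relative to WT) and the other 5 a negative one, where 46.4% of all tested genes had a positive one. The median was -0.22 for the 9 members and -0.03 for all tested genes. Adjusted p-values from limma lay between 0.318 and 0.957.

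**Figure D1:**
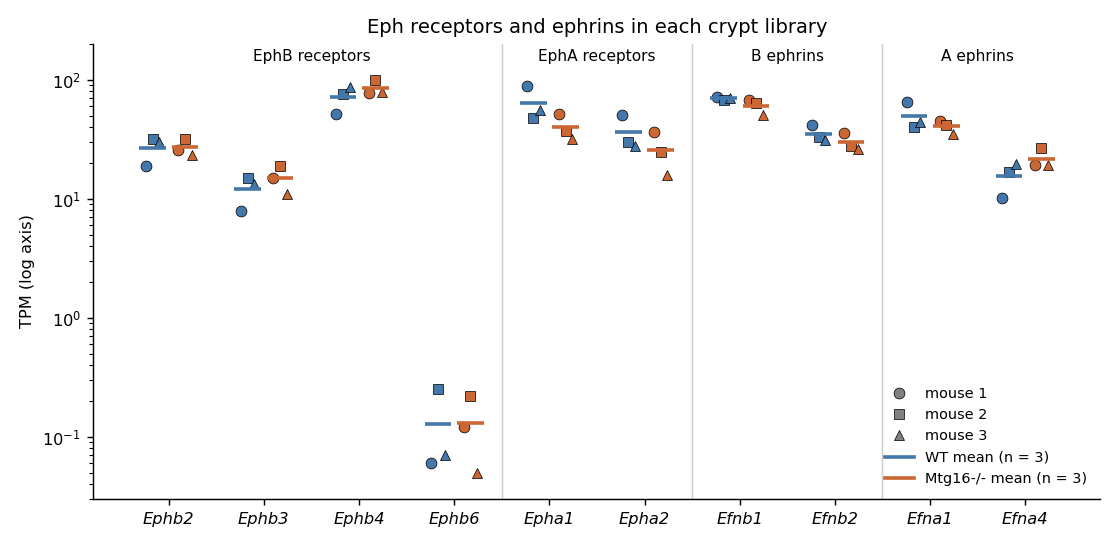
TPM of the 10 genes in each library, on a log axis, with WT in blue and Mtg16-/- in orange. Circles, squares and triangles stand for mouse 1, 2 and 3 of a genotype and horizontal bars for the mean of 3 mice. The values of the 2 genotypes overlap in every gene, and Ephb6 lies near 0.

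The libraries themselves set the scale for these comparisons. Cbfa2t3 did not distinguish the genotypes at the level of the whole gene, with a TPM of 3.67 to 6.69 in WT and 3.23 to 6.43 in the libraries labelled Mtg16-/-, so every direction given here rests on the labels. The epithelial markers summed to a TPM of 10560 to 13304, with Epcam and Cdh1 among them. Of 12 endothelial markers, 8 stayed under a TPM of 1 in every library, and the summed level was 7.57 to 10.3. The summed level of 15 enterocyte markers was 37532, 12935 and 16011 in WT mice 1, 2 and 3 and 13241, 7347 and 6752 in Mtg16-/- mice 1, 2 and 3. All 15 had a negative log2 fold change, with 0 called by limma. At an unadjusted p under 0.05, 9 passed, where the background in that direction was 8.05%. WT mouse 1 stood apart in enterocyte transcripts. It also held the highest value of 5 tested members and the lowest of the other 4. Mtg16-/- mouse 3 held the lowest value of those 5, and Mtg16-/- mouse 2 the highest of those 4.

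Among the EphB receptors, Ephb2 had nearly equal means in the genotypes. It lies on chromosome 4 (GRCm38, 136647536 to 136836326, minus strand) and encodes the receptor whose level marks stem and progenitor cells of the crypt. Its TPM was 19.0, 31.7 and 30.0 in WT mice 1, 2 and 3 and 25.7, 32.1 and 23.6 in Mtg16-/- mice 1, 2 and 3. WT mouse 1 was the lowest and all Mtg16-/- values except that of mouse 2 lay inside the WT range. WT averaged 26.9 ± 6.90 and Mtg16-/- 27.1 ± 4.44 (mean ± SD, n = 3 each), a log2 fold change of 0.03 (SE, the standard error, 0.21, limma adjusted p = 0.957). The 95% interval of the difference ran from -0.46 to 0.52 on the log2 scale. Without WT mouse 1 the log2 fold change was -0.19, and without Mtg16-/- mouse 2 it was -0.09, so the sign depended on single mice. Of 12 stem cell markers, 11 had a positive log2 fold change and 0 were called by limma. At an unadjusted p under 0.05, 5 were higher, where the background in that direction was 6.53%. The 12 stem cell markers summed to a TPM of 1089 to 1822 in WT and 1910 to 2518 in Mtg16-/-. Olfm4 made up most of each sum, with 647 to 1147 in WT and 1239 to 1611 in Mtg16-/-. The groups did not overlap in 5 of the 12, all higher, where the background was 9.94%. The part of the stem cell markers in the Ephb2 values was not tested.

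Ephb3, on chromosome 16 (21204620 to 21223309, plus strand), encodes the receptor that Paneth cells need to stay at the crypt base. Its TPM was 7.90, 14.9 and 13.3 in WT and 14.9, 18.7 and 11.1 in Mtg16-/-. The highest value was that of Mtg16-/- mouse 2 and the lowest that of WT mouse 1, and the groups overlapped. The log2 fold change was 0.30 (SE 0.26, 95% interval -0.31 to 0.90, limma adjusted p = 0.597), and it was 0.05 without WT mouse 1. The summed level of 12 Paneth cell markers, with Lyz1 and 4 defensin genes among them, was 12380, 25518 and 14666 in WT and 39590, 30298 and 30274 in Mtg16-/-. Of the 12, 0 were called by limma, with 7 higher and 1 lower (Guca2b) at an unadjusted p under 0.05. The background was 6.53% higher and 8.05% lower. Guca2b had a TPM of 1953, 720 and 880 in WT and 694, 387 and 456 in Mtg16-/-. It was highest in WT mouse 1, where the Paneth sum was lowest and the enterocyte sum highest, so its place in this list is doubtful. The part of the Paneth cell markers in the Ephb3 values was not tested.

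Sequence next to the start sites of the crypt base receptors was examined because TCF/LEF factors carry the Wnt signal to DNA and bind a core that was searched here as CTTTG followed by A or T at each of the next 2 positions, and because many helix-loop-helix factors bind the E-box, searched as CAGCTG, both on either strand. The 250 bases before an annotated start site are given for Ephb2 (chr4:136836013-136836262, minus strand), Ephb3 (chr16:21204545-21204794, plus strand), Epha2 (chr4:141300971-141301220, plus strand) and Efna4 (chr3:89338029-89338278, minus strand) of GRCm38.p6. They read 5′ to 3′ on the strand of the gene, with matches in capitals. The starts used for Ephb2 and Ephb3 lie inside the gene spans given above. The Ephb2 window lies wholly inside its span, and the Ephb3 window crosses the first base of its span, 21204620.
Ephb2: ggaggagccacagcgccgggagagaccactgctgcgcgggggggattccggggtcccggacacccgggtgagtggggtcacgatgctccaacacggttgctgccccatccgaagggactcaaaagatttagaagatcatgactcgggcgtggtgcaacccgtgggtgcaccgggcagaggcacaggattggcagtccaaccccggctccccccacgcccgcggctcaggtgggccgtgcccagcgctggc
Ephb3: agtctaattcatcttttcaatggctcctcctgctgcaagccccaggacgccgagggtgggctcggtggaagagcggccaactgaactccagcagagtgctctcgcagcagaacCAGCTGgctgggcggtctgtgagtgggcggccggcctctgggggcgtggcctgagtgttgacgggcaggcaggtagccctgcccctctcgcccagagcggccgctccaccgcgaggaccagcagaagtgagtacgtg
Epha2: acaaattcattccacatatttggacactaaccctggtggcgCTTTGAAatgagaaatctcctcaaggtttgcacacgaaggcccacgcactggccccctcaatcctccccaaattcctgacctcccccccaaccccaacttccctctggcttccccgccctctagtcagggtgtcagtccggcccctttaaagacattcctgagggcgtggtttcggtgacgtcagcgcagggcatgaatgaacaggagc
Efna4: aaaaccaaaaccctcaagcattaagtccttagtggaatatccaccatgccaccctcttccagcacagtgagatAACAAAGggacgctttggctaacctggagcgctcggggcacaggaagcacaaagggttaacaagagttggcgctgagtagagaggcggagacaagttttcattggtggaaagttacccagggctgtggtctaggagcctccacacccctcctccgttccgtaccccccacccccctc

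Neither Ephb2 nor Ephb3 held a TCF/LEF core in this window. Over windows of 250 bases before to 50 after each start, 2 of the 11 promoters of the 10 genes held one (18.2%), at 209 bases before the start of Epha2 and, on the other strand, 177 bases before that of Efna4. Among all promoters, 32851 in number, 16.9% held one, as did 12% of the 12102 promoters of tested genes. The E-box was found in 1 of the 11 (Ephb3, 9.09%), where 16.3% of all promoters held it. It lay 137 bases before the start used for Ephb3, but inside the gene span. These matches are letters in a window and not sites shown to be bound, and their absence says nothing of the factors.

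Ephb4, on chromosome 5 (137350109 to 137374522, plus strand), encodes the receptor for ephrin-B2 that is best known from veins. Its TPM was 51.7, 76.2 and 87.5 in WT and 77.8, 101 and 79.0 in Mtg16-/-. It was the most abundant of the 10 genes in every library except that of WT mouse 1, where Epha1 was first and Ephb4 held rank 4. The log2 fold change was 0.28 (SE 0.21, 95% interval -0.20 to 0.75, limma adjusted p = 0.538), and it was 0.06 without WT mouse 1. Of the 12 endothelial markers, Lyve1 had a TPM of 1.81 to 3.50, Esam 2.35 to 2.91, Pecam1 0.70 to 2.41 and Egfl7 0.98 to 1.72. The other 8 (Cdh5, Kdr, Tie1, Tek, Emcn, Vwf, Cldn5 and Flt1) reached at most 0.50, and Flt1 was listed at 0 in all 6 libraries. Their part in the Ephb4 values was not tested. Ephb6, on chromosome 6 (41603834 to 41620509, plus strand), encodes a receptor that lacks kinase activity. Its TPM was 0.06, 0.25 and 0.07 in WT and 0.12, 0.22 and 0.05 in Mtg16-/-, and it was left out of the test for its low level.

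The EphA receptors had the largest negative values among the 10 genes. Epha1, on chromosome 6 (42358487 to 42373314, minus strand), encodes a receptor of epithelia that binds A ephrins. Its TPM was 88.8, 47.3 and 56.1 in WT and 51.1, 37.4 and 31.7 in Mtg16-/-. WT mouse 1 was the highest, 2 of the 3 Mtg16-/- libraries lay below every WT library, and Mtg16-/- mouse 1 lay between WT mice 2 and 3. WT averaged 64.1 ± 21.8 and Mtg16-/- 40.1 ± 10.01 (mean ± SD, n = 3 each), a log2 fold change of -0.64 (SE 0.26, limma adjusted p = 0.318). The 95% interval ran from -1.24 to -0.04 before any adjustment for the number of genes. Without WT mouse 1 the value was -0.38. Epha1 shares 1727 bases with Zyx on the other strand. Whether counting used strand is not given in the sources used here, and without strand reads in the shared part cannot be told apart. The TPM of Zyx was 85.4, 56.7 and 63.0 in WT and 54.8, 49.3 and 37.3 in Mtg16-/-. Both genes of the pair were highest in WT mouse 1 and lowest in Mtg16-/- mouse 3. Epha2, Efnb1, Efnb2 and Efna1 had the same extremes, so this was not particular to the overlapping pair.

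Epha2, 4.46 Mb from Ephb2 on chromosome 4 (141301221 to 141329384, plus strand), encodes the main receptor for ephrin-A1. Its TPM was 50.9, 30.2 and 28.0 in WT and 36.6, 24.9 and 15.9 in Mtg16-/-. WT mouse 1 was again the highest and Mtg16-/- mouse 3 the lowest, and Mtg16-/- mouse 1 lay above WT mice 2 and 3. The log2 fold change was -0.50 (SE 0.32, 95% interval -1.24 to 0.24, limma adjusted p = 0.480). Its value was -0.24 without WT mouse 1 and -0.21 without Mtg16-/- mouse 3.

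**Figure D2:**
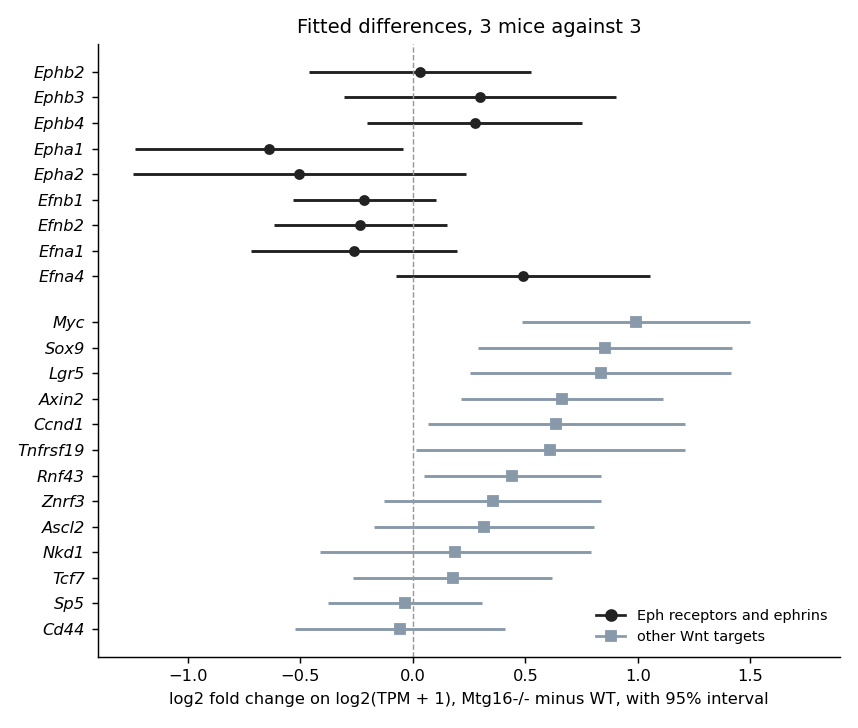
Fitted log2 fold change on the log2(TPM + 1) scale, Mtg16-/- minus WT, for the 9 tested Eph receptors and ephrins (circles) and 13 tested other Wnt targets (squares), with 95% intervals that are not adjusted for the number of genes. The interval of Epha1 is the only one among the 9 that leaves out 0, and 7 of the 13 squares have an interval above 0.

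Both B ephrins had small negative values. Efnb1, on the X chromosome (99136061 to 99149022, plus strand), encodes ephrin-B1, a ligand of EphB2 and EphB3. Its TPM was 71.3, 67.8 and 70.4 in WT and 67.8, 63.2 and 50.4 in Mtg16-/-. The WT values lay close together, the highest Mtg16-/- value equalled the lowest WT value, and Mtg16-/- mouse 3 was the lowest. For Efnb1 the fitted log2 fold change was -0.22 (SE 0.14, 95% interval -0.53 to 0.10, limma adjusted p = 0.481), and it was -0.09 without Mtg16-/- mouse 3. Efnb2, on chromosome 8 (8617235 to 8661242, minus strand), encodes ephrin-B2, the ligand of EphB4. Its TPM was 41.4, 32.7 and 31.4 in WT and 35.6, 27.6 and 26.2 in Mtg16-/-. Mtg16-/- mice 2 and 3 lay below every WT library and mouse 1 above WT mice 2 and 3. For Efnb2 the fitted log2 fold change was -0.23 (SE 0.17, 95% interval -0.62 to 0.15, limma adjusted p = 0.525). It was -0.11 without WT mouse 1, -0.36 without Mtg16-/- mouse 1 and -0.15 without Mtg16-/- mouse 3.

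The A ephrins lie together on chromosome 3 and had values of opposite sign. Efna1 (89271730 to 89280951, minus strand) encodes the ligand of EphA2 and had a TPM of 65.3, 40.1 and 43.9 in WT and 45.2, 41.9 and 35.0 in Mtg16-/-. Its highest value was that of WT mouse 1, and the other 5 libraries lay between 35.0 and 45.2. For Efna1 the fitted log2 fold change was -0.26 (SE 0.20, 95% interval -0.72 to 0.20, limma adjusted p = 0.544), and it was -0.05 without WT mouse 1. Efna4 (89333393 to 89338028, minus strand), 52.4 kb from Efna1, encodes another lipid-anchored ligand. Its TPM was 10.2, 16.7 and 19.5 in WT and 19.2, 26.8 and 19.1 in Mtg16-/-. WT mouse 1 was the lowest and Mtg16-/- mouse 2 the highest, and WT mouse 3 lay above 2 of the 3 Mtg16-/- libraries. For Efna4 the fitted log2 fold change was 0.49 (SE 0.24, 95% interval -0.07 to 1.05, limma adjusted p = 0.390), the highest of the 9, and it was 0.23 without WT mouse 1. Efna3 lies between them, 10.5 kb from Efna4, and its TPM was 6.85, 11.0 and 9.40 in WT and 6.65, 11.3 and 10.1 in Mtg16-/- (log2 fold change 0.03, limma adjusted p = 0.960).

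By level, the genes kept nearly the same order in both genotypes. In WT the order of the means was Ephb4, Efnb1, Epha1, Efna1, Epha2, Efnb2, Ephb2, Efna4, Ephb3 and Ephb6. The range of each gene over the 3 WT mice overlapped with that of the next, except that Ephb3 stood above Ephb6. Inside each of the 3 WT libraries, however, Epha1 was above Efna1, Efna1 above Epha2, Efnb2 above Ephb2, Ephb2 above Efna4 and Efna4 above Ephb3, while the order of the other overlapping neighbors differed between mice. In Mtg16-/- the order was Ephb4, Efnb1, Efna1, Epha1, Efnb2, Ephb2, Epha2, Efna4, Ephb3 and Ephb6. There Ephb4 stood clear of Efnb1, Efnb1 of Efna1, Efna4 of Ephb3 and Ephb3 of Ephb6, while the ranges of the other neighbors overlapped, with Epha1 above Efnb2 in each of the 3 libraries. Efnb1 held rank 2, Ephb3 rank 9 and Ephb6 rank 10 in all 6 libraries. The TPM of Ephb2 was 0.266, 0.468 and 0.426 of that of Efnb1 in WT and 0.379, 0.507 and 0.467 of it in Mtg16-/-.

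The balance of the receptor classes overlapped between the genotypes and differed widely among the libraries of each. The summed TPM of the 4 EphB receptors was 78.7, 123 and 131 in WT and 118, 152 and 114 in Mtg16-/-, and that of the 2 EphA receptors was 140, 77.5 and 84.2 in WT and 87.8, 62.4 and 47.6 in Mtg16-/-. The ratio of EphB to EphA receptors, a measure chosen after the values were seen, was 0.564, 1.59 and 1.56 in WT and 1.35, 2.43 and 2.39 in Mtg16-/-. The lowest ratio belonged to WT mouse 1 and the highest to Mtg16-/- mice 2 and 3, and Mtg16-/- mouse 1 lay inside the WT range. The libraries ordered by this ratio stood in almost the reverse order of their summed enterocyte markers, given above, with 37532 TPM in the library with the lowest ratio and 6752 and 7347 in those with the highest. The part of the enterocyte share in these values was not tested. The ratio of EphB receptors to B ephrins was 0.698, 1.22 and 1.29 in WT and 1.15, 1.67 and 1.48 in Mtg16-/-, and that of EphA receptors to A ephrins was 1.85, 1.36 and 1.33 in WT and 1.36, 0.908 and 0.880 in Mtg16-/-. Both overlapped between the genotypes.

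**Figure D3:**
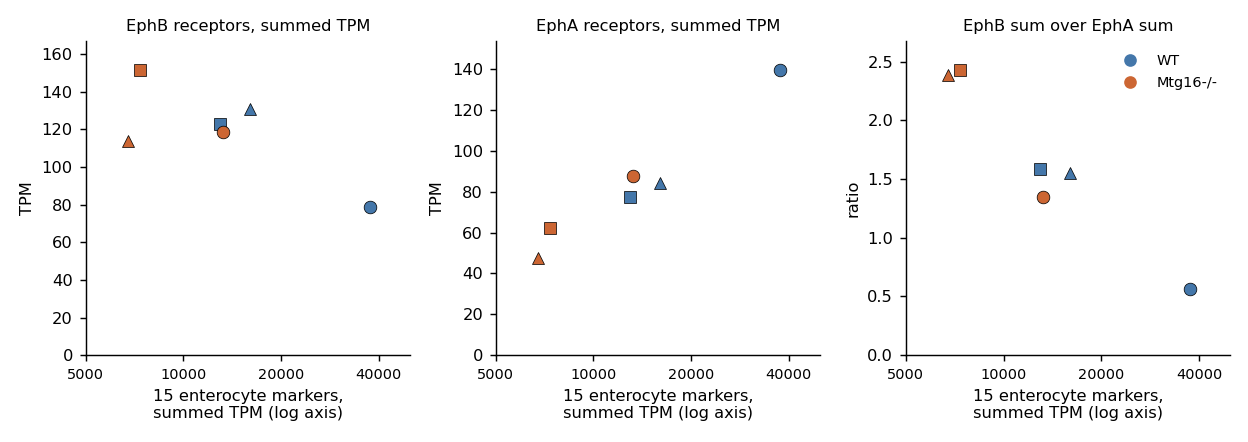
Summed TPM of the EphB receptors (left), of the EphA receptors (middle) and the ratio of the sums (right) in each library, against the summed TPM of 15 enterocyte markers on a log axis. WT is blue and Mtg16-/- orange, with circles, squares and triangles for mouse 1, 2 and 3. WT mouse 1, at 37532 TPM of enterocyte markers, has the lowest ratio (0.564).

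The crypt base receptors were then set beside other Wnt targets, since Ephb2 and Ephb3 belong to that program. Of 15 other Wnt targets, 13 were tested, and 0 were called at an adjusted p under 0.1. At an unadjusted p under 0.05 from limma 7 of them were higher, where the background in that direction was 6.53%, and their groups did not overlap in 7, all higher, where the background was 9.94%. Their median log2 fold change was 0.44. Lgr5, Ascl2, Axin2 and Tnfrsf19 were also among the stem cell markers above, so the counts of these lists are not independent. Axin2, a feedback inhibitor of Wnt signaling, had a TPM of 53.3, 74.2 and 82.5 in WT and 103, 132 and 96.9 in Mtg16-/- (log2 fold change 0.66, limma adjusted p = 0.263). Myc, a growth regulator, had 32.6, 44.8 and 57.2 in WT and 73.9, 105 and 87.2 in Mtg16-/- (log2 fold change 0.99, limma adjusted p = 0.224). Ephb2 and Ephb3, with 0.03 and 0.30, lay below the median of 0.44. Their 95% intervals (-0.46 to 0.52 and -0.31 to 0.90) both included it. Cd44, the crypt adhesion receptor (-0.06), and Sp5, a Wnt-induced repressor (-0.04), lay below both receptors. The list was compiled with earlier results of these data known.

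Ratios inside each library were then taken between the members and these genes, a measure chosen after the values were seen. The ratio of Ephb2 to Axin2, each as TPM + 1, was 0.368, 0.435 and 0.371 in WT and 0.257, 0.248 and 0.251 in Mtg16-/-. The genotypes were apart in this ratio, and the spread within each genotype was small. The ratio was lower in Mtg16-/- without overlap for 8 of the 13 Wnt targets (Lgr5, Ascl2, Axin2, Rnf43, Znrf3, Sox9, Myc and Ccnd1), where Ephb2 set against each of the other 12267 tested genes gave a lower ratio without overlap for 4% of them. The other 5 overlapped, and the ratio of Ephb2 to Cd44 was 1.09, 1.11 and 1.32 in WT and 1.26, 1.23 and 1.24 in Mtg16-/-. For Ephb3 the count was 4 of 13 (Lgr5, Axin2, Sox9 and Myc), where the background was 0.514%. A lower ratio to Wnt targets was not particular to these receptors. It was found without overlap for 8 of the 13 with Epha1 (background 29.5%), 8 with Efnb1 (20.6%), 6 with Efna1 (13.4%), 5 with Ephb4 (138 of 12267 genes), 5 with Efnb2 (10%), 3 with Efna4 (0.253%) and 2 with Epha2 (4.95%). The 13 genes share libraries and are not independent of each other. Lgr5, Axin2, Rnf43, Sox9, Myc and Ccnd1 were themselves higher in Mtg16-/- without overlap. Low ratios to them follow in part from those values and, for Ephb2 with its log2 fold change of 0.03, largely from them. They are not separate support. The 13 genes were listed with earlier results of these data known. The shares over all genes are therefore not a matched background for these counts. With 3 mice against 3, an exact permutation test of any such ratio cannot go below p = 0.1.

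**Figure D4:**
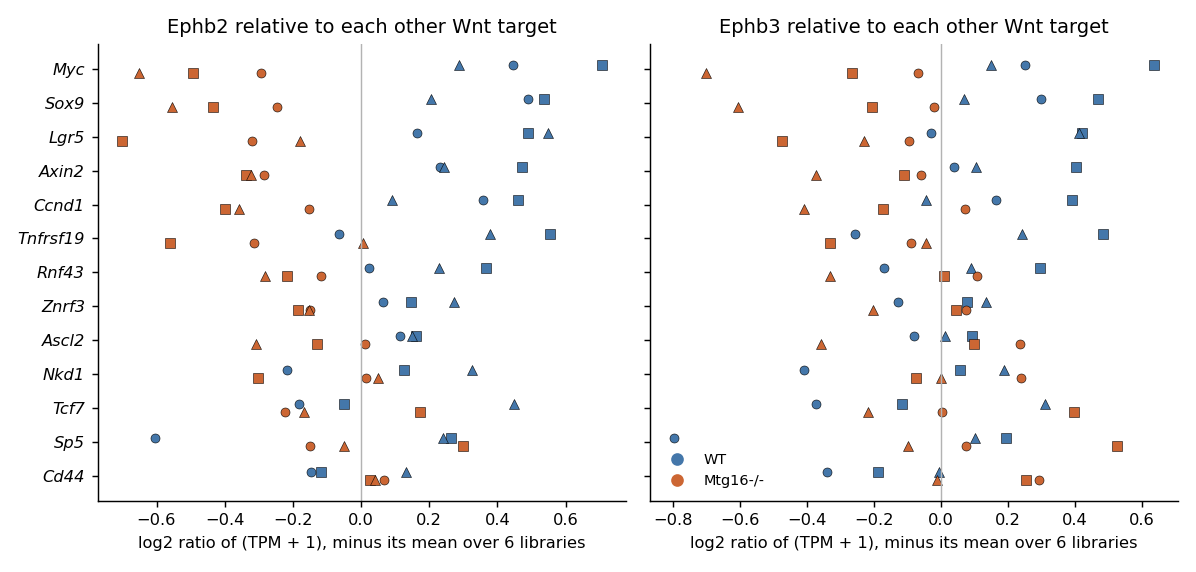
Log2 ratio of Ephb2 (left) and Ephb3 (right) to each of 13 other Wnt targets, from TPM + 1 and centered on its mean over the 6 libraries. WT is blue and Mtg16-/- orange, with circles, squares and triangles for mouse 1, 2 and 3. For Ephb2 the orange points lie left of all blue points in 8 rows, and for Ephb3 in 4.

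Within the family, 9 of the 36 ratios of TPM between 2 tested members did not overlap between the genotypes (25.0%). The background, each member over each other tested gene and taken from TPM + 1, was 17.8%. Of these 9 pairs, 4 involved Efna4. The background differed by member, from 6% with Epha2 to 34.4% with Efna4, so the Efna4 count is not particular to the family. The ratio of Ephb2 to Ephb3 was 2.41, 2.13 and 2.25 in WT and 1.73, 1.72 and 2.13 in Mtg16-/-, lower by a narrow margin in mouse 3. The ratio of Epha1 to its neighbor in level, Efna1, was 1.36, 1.18 and 1.28 in WT and 1.13, 0.893 and 0.905 in Mtg16-/-. The ratio of Epha1 to Efna4 was 8.69, 2.83 and 2.89 in WT and 2.66, 1.40 and 1.66 in Mtg16-/-.

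The genes with the pattern most like that of a member were sought by the root mean square difference of their log2 deviations over the 6 libraries. For Ephb2 the closest was Lrig1, an inhibitor of EGF receptors that marks stem cells, at 0.0469 on the log2 scale, followed by Nenf (0.0484) and Sgsh (0.0544). Lrig1 had a TPM of 40.5, 60.7 and 61.1 in WT and 52.5, 62.7 and 49.0 in Mtg16-/-. For Ephb3 the closest were Cracr2a (0.0791), Gm3435 (0.0804) and Lamb2 (0.0814), and for Efnb1 they were AI661453 (0.0203), Mark2 (0.0276) and Asb6 (0.0290). The measure takes no account of level, and 6 libraries separate patterns only coarsely.

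Of the 12 other Eph receptors and ephrins, 2 passed the filter at a mean TPM of 1 and 0 were called by limma, with 0 at an unadjusted p under 0.05. Epha4, which binds ephrins of both classes, had a TPM of 1.57, 2.69 and 2.96 in WT and 3.60, 4.46 and 2.92 in Mtg16-/- (log2 fold change 0.46, standard error 0.24, limma adjusted p = 0.400). Efna3 is given above. Efnb3 had 1.08, 0.89 and 1.23 in WT and 0.83, 0.79 and 0.22 in Mtg16-/-, lower without overlap, but it lay below the filter and had no test. Epha3, Epha6, Epha8, Epha10 and Ephb1 were listed at 0 in all 6 libraries. Epha5, Epha7, Efna2 and Efna5 reached at most 0.51.

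Of 34 signaling partners of Eph receptors and ephrins, 32 were tested and 0 were called by limma, with 16 log2 fold changes above 0 and 16 below and a median of 0.01. At an unadjusted p under 0.05, 2 were lower and 0 higher, where the background was 8.05% and 6.53%. Rgs3, which links B ephrins to heterotrimeric G proteins, had a TPM of 47.5, 43.3 and 42.9 in WT and 39.4, 35.0 and 27.7 in Mtg16-/- (log2 fold change -0.39, standard error 0.15, limma adjusted p = 0.311). Kalrn, a guanine nucleotide exchange factor, had 14.3, 5.73 and 6.99 in WT and 5.94, 3.38 and 2.68 in Mtg16-/- (log2 fold change -0.96, standard error 0.35, limma adjusted p = 0.302). Kalrn and Rgs3, like Epha1, Epha2, Efnb1, Efnb2 and Efna1, were highest in WT mouse 1 and lowest in Mtg16-/- mouse 3. Other partners had the same extremes, so this was not particular to Kalrn or the EphA receptors. Adam10, the protease that sheds ephrins and cadherin, had a TPM of 48.5 to 80.1 in WT and 65.1 to 77.7 in Mtg16-/- (log2 fold change 0.07, limma adjusted p = 0.896). Cdh1, E-cadherin and the most abundant of the 34, had a TPM of 410 to 448 in WT and 317 to 433 in Mtg16-/- (log2 fold change -0.16, limma adjusted p = 0.638).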

How the data were processed

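Crypt RNA of 3 WT and 3 Mtg16-/- mice was measured in 1 library each, prepared from 200 ng of total RNA with 14 PCR cycles. The submitters' processing notes name cutadapt 1.9.1, STAR 2.5.2a, RSEM 1.3.0, DESeq2 1.12.3 and the build mm10. The authors deposited RSEM TPM values by gene symbol, rounded to 2 decimals. TPM keeps no read number, so no count test was run and no interval that needs depth is given. Values were transformed as log2(TPM + 1), so changes of genes at low TPM come out smaller than they are. Genes at a TPM of 1 or more on average were fitted in limma 3.58.1 (R 4.3.3) with an intensity trend and no covariate, and p-values were adjusted by Benjamini-Hochberg over all of them. Groups follow the labels. The members and lists were chosen with earlier results of these data known. The genes named are all members, the genes most like Ephb2, Ephb3 and Efnb1, Cbfa2t3 and genes of each list by level and change, with some added after their values were seen (Cd44, Sp5, Rgs3, Adam10, Zyx, Efnb3 and 8 endothelial genes). Ratios between genes were also added after values were seen. The calculation was tested on simulated data. Positions are from RefSeq GRCm38.p6 (24076 symbols matched), and overlaps from GENCODE vM21. Promoters (for 17937 symbols) are set by annotated start sites of the same build, which can lie inside the gene span. Alternatives were another pseudocount, other filters, rescaling, quantile normalization, a fit without trend, array weights, robust moderation, the replicate number as a block, a stricter threshold and each mouse left out.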

Additional observations from a re-analysis of the deposited data

How the results depend on the processing

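By limma, 0 of the 9 tested members were called in 15 of the 16 alternatives. The exception was the replicate number as a block, with 2 called, both lower (Epha1, adjusted p = 0.0387, and Epha2, adjusted p = 0.0851), where 1201 of all genes were called, 9.79%. Same-numbered libraries deviated from their group means with r = 0.429, 0.0753 and 0.237 across genes, not all above 0.1, and WT mouse 2 correlated best with another number, so the numbers were not taken as pairs. Over all genes, the count called was 4, and it was 43 with no filter, 15 at a mean TPM of at least 5, 20 with robust moderation and 855 with array weights. It was 0 with rescaling by median ratios, with quantiles equalized, without the intensity trend or at an adjusted p under 0.05, where 1818, 1854, 1754 and 1789 genes had an unadjusted p under 0.05. With each mouse left out it lay between 0 and 20, with 20 without WT mouse 1, 1 without Mtg16-/- mouse 1, 2 without Mtg16-/- mouse 2 and 0 without Mtg16-/- mouse 3 (1062 at an unadjusted p under 0.05). The sign of 8 members held in all 16 alternatives. That of Ephb2 turned with array weights (-0.024), and with each mouse left out it lay between -0.19 and 0.16. The causes were not tested. The read depth, which limits the precision of Ephb6 and other low genes, is unknown.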

Other observations

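Of the marker lists not given in the report, 0 genes of any list were called by limma at an adjusted p under 0.1, and the lists were compiled with earlier results of these data known. At an unadjusted p under 0.05 from limma, the background over all tested genes was 6.53% higher and 8.05% lower. All 12 enteroendocrine markers had a positive log2 fold change, 10 of them at an unadjusted p under 0.05, with a median of 0.64 and Pyy, a gut peptide hormone, at 1.17. Among 10 goblet cell markers 4 were positive and 6 negative (median -0.32), with 1 higher and 2 lower at an unadjusted p under 0.05. Of 8 tested tuft cell markers, 7 were negative (median -0.50), with 2 lower at an unadjusted p under 0.05. The summed TPM of the tuft cell list was 77.1, 61.2 and 128 in WT and 49.8, 59.25 and 72.9 in Mtg16-/-. The groups overlapped, and WT mouse 3 stood highest. All 13 immune cell markers were negative (median -0.50), and their summed TPM was 180 to 504 in WT and 99.7 to 260 in Mtg16-/-. Of 12 mesenchymal and muscle markers 4 were tested (median 0.16), and of 8 enteric nerve and glia markers 1 was tested, Ret, at 0.14.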
